A study of Sus scrofa with 6 samples.

Results

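The genes described here encode subunits of the mitochondrial respiratory chain and of the ATP synthase. They were selected by symbol in the array's annotation (the NDUF, SDH, UQCR, CYCS, COX and ATP5 families), which gave 55 of the 13755 genes with a symbol. By symbol 26 belong to complex I, 3 to complex II, 3 to complex III with cytochrome c, 7 to complex IV and 16 to complex V. Monocytes from the blood of 3 piglets (Large White Landrace F1 cross, 8 weeks of age) had been frozen as mononuclear cells, thawed, and sorted after staining of CD14 and CD163. From each pig 1 array was made of the CD14low-CD163high cells (CD163high) and 1 of the CD14high-CD163low cells (CD163low), so that 6 arrays form 2 groups of 3. No pig was treated, and both groups passed through the same freezing, thawing and staining. The comparison asked which transcripts differ between the 2 monocyte populations.

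Complexes I to IV pass electrons from NADH and succinate to oxygen, and complexes I, III and IV pump protons across the inner mitochondrial membrane as they do so. The ATP synthase, complex V, lets the protons flow back and makes ATP. Most subunits are encoded in the nucleus and a small core by the mitochondrial genome. In human and mouse macrophages, anti-inflammatory and alternatively activated cells are known for greater reliance on this pathway, and cells activated by bacterial lipopolysaccharide for greater reliance on glycolysis.

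Signal is given on the log2 scale. A difference is CD163high minus CD163low, given ± its standard error in limma, and means carry their SD (n = 3 each). With so few arrays all of these are imprecise. The sort antigen CD163 had a signal of 8.17, 7.98 and 7.61 in CD163high of pigs 1, 2 and 3 and of 4.97, 6.17 and 6.54 in CD163low. CD14 had 4.31, 5.53 and 5.82 in CD163high and 6.24, 5.78 and 6.84 in CD163low. Both thus had the direction of the gate in every pig. The 69 background controls averaged 2.82, 2.97 and 3.67 on the CD163high arrays of pigs 1, 2 and 3, against 3.29, 2.60 and 3.06 on the CD163low arrays, so that CD163high of pig 3 and CD163low of pig 1 stood apart with the highest background. The 4 measured of 6 monocyte markers (CD14, LYZ, ITGAM and SIRPA) lay over the mean of the background controls on all arrays. All 4 had differences below 0, with a median of -0.24, but the cells were sorted on CD14. LYZ, ITGAM and SIRPA had differing signs between the pigs. CD14 had -1.07 ± 0.47, SIRPA -0.45 ± 0.37, LYZ -0.036 ± 0.68 and ITGAM -0.0058 ± 0.33.

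Most subunit genes had a greater signal in CD163high than in CD163low monocytes, but none was called once adjusted for all probe sets. The difference was above 0 for 49 of the 55 members and below 0 for 6, with a median of 0.53 and a range from -0.56 (NDUFA1) to 1.85 (ATP5A1). Over all 13755 genes the median was -0.013, and 47.7% were above 0. Limma called 0 of the 55 members after adjustment over all 47722 probe sets, and each had an adjusted p of 1. Of all probe sets 0% were called. At an unadjusted p under 0.05 limma found 12 of the 55 members (21.8%), all with the greater signal in CD163high, against 1.84% of all genes, and 0 members in the other direction, against 1.43% of all genes. With the pig as a block it found 14 members with the greater signal in CD163high (25.5%), against 2.67% of all genes, and 0 in the other direction, against 2.45%, and again called 0. Over the whole array 1235 probe sets had an unadjusted p under 0.05 without the block and 1917 with it. In sorted cells measured in bulk, fewer cells of a type and less RNA per cell cannot be told apart.

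The members did not depend equally on the 3 animals. Their median difference was 0.68, 0.48 and 0.12 in pigs 1, 2 and 3. In 24 of the 55 members (43.6%) CD163high exceeded CD163low in all 3 pigs, against 10.5% of all genes, and 2 (NDUFA1 and ATP5H) lay lower in CD163high in all 3 pigs, against 12.5% of all genes. The other 29 had differing signs. The 3 CD163high arrays lay above all 3 CD163low arrays for 12 members (21.8%), against 3.02% of all genes, and below them for NDUFA1, against 3.16%. Without pig 1 the median was 0.34 and 4 members had an unadjusted p under 0.05 with the greater signal in CD163high (7.27%), against 0.763% of all genes. Without CD163high of pig 1 the median was 0.34 and the number was 5 (9.09%), against 1.09% of all genes. It was 6 (10.9%) without CD163high of pig 2, against 1.52% of all genes, and 7 (12.7%) without CD163low of pig 3, against 1.16%. Without CD163high of pig 3 it was 21 (38.2%), against 5.08% of all genes. The share of all genes thus moved with the array left out, as the members' count did.

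**Figure D1:**
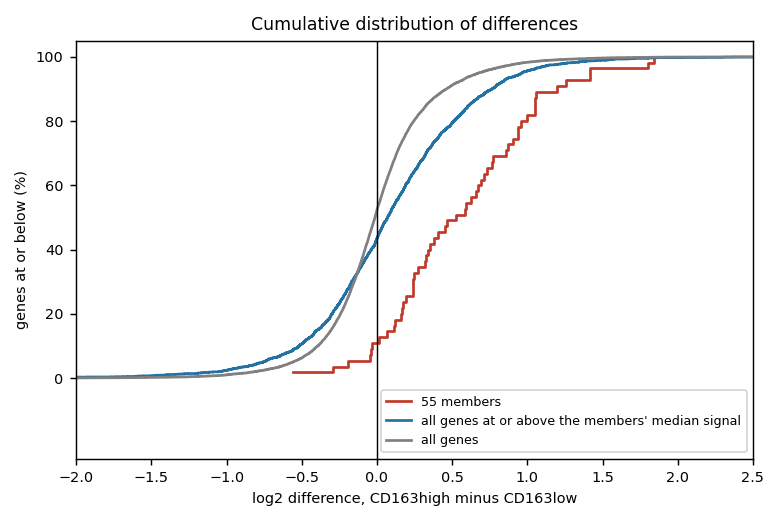
Cumulative percentage of genes (vertical axis) at or below a given log2 difference, CD163high minus CD163low (horizontal axis), for the 55 members, for all genes with a mean signal at or above the members' median, and for all genes. The members' curve lies to the right, with a median of 0.53, against 0.071 for the genes at or above the members' median signal and -0.013 for all genes. The former are brighter than the members, with a median signal of 6.97, against 5.98 for the members.

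Bright genes as a class also shifted between the 2 arrays of a pig. Among the 2632 genes with a mean signal at or above the members' median, the median difference was 0.071, but it was 0.59, 0.075 and -0.40 in pigs 1, 2 and 3. The members' medians ran in the same order of pigs, and in each pig they were the greater. Of these bright genes 3.99% had an unadjusted p under 0.05 with the greater signal in CD163high, and 13.7% had it in all 3 pigs. Bright genes as a whole thus had a median above 0 in pig 1, as the members did, and below 0 in pig 3, where the members' median was above 0. With the background control signal as a covariate the members' median was 0.58. Under that covariate 26 members (47.3%) had an unadjusted p under 0.05 with the greater signal in CD163high, against 8.85% of all genes, so the number went up for genes in general. Without the 2 arrays of highest background the members' median was 0.63.

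Single arrays ranked differently among the members. CD163high of pig 1 had the highest signal of the 6 arrays for 26 of the 55 members and the lowest for 0. For all genes it had the highest signal in 14.2%, and for the bright genes in 24.1%. The lowest signal fell on CD163low of pig 2 for 20 members (36.4%), against 24% of all genes and 12.2% of the bright genes. It fell on CD163low of pig 1 for 19 members (34.5%), against 15.5% of all genes and 31.3% of the bright genes, which is near the members' share. For 12 members (21.8%) the 3 arrays with the lowest background (CD163high of pigs 1 and 2, and CD163low of pig 2) lay above the other 3 arrays, against 16.5% of all genes. These were NDUFB4, NDUFB5, NDUFB9, NDUFC1, NDUFS1, NDUFS4, SDHD, COX6B, ATP5A1, ATP5B, ATP5C1 and ATP5F1. The reverse order held for 5 members (NDUFA3, NDUFS6, NDUFS7, SDHB and COX7A1), against 25.1% of all genes. The part of the background in these orders was not tested.

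**Figure D2:**
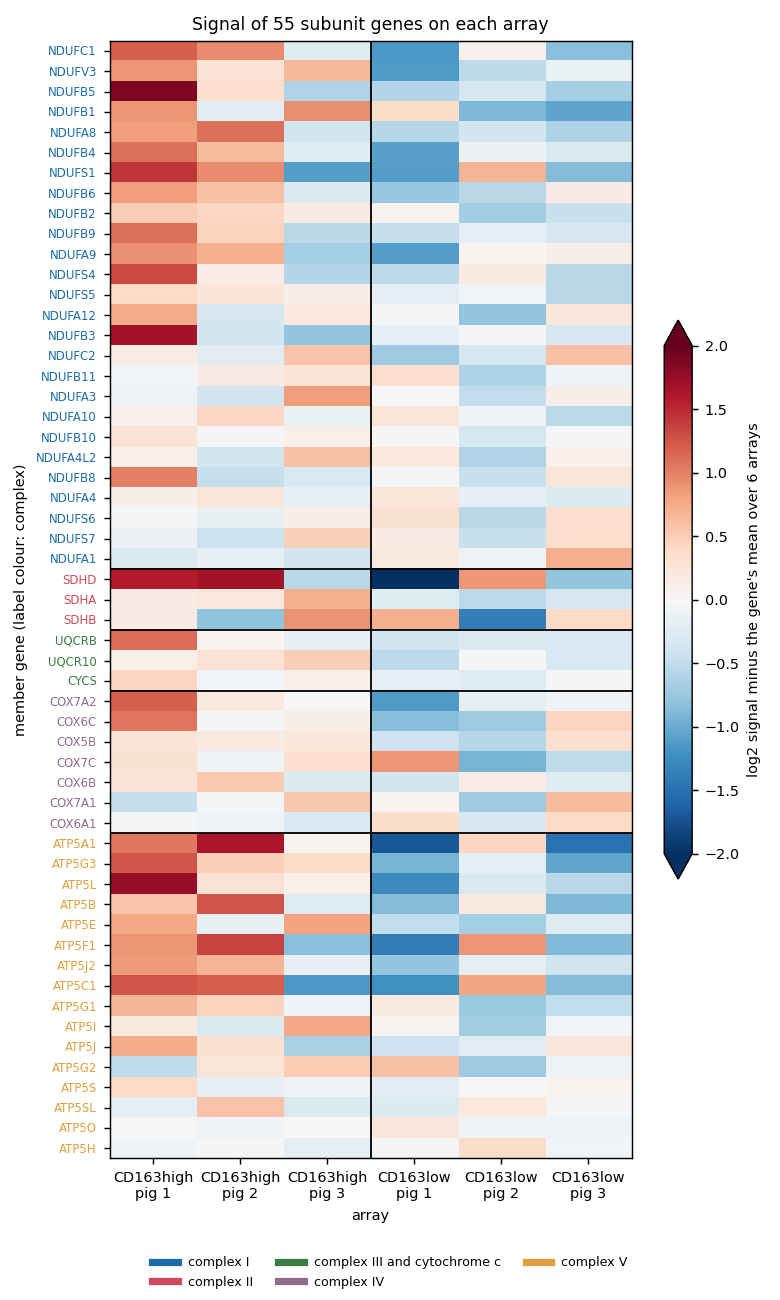
Log2 signal of each of the 55 members minus its own mean over 6 arrays (colour), by gene (rows, grouped by complex and sorted by difference) and array (columns, CD163high left of CD163low). CD163high of pig 1 was the highest array for 26 members, and the blocks of NDUFS1, SDHD, ATP5C1 and ATP5F1 show 3 arrays of both groups above the other 3.

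Dim members were few: 7 of the 55 fell short of an array's background control mean somewhere. NDUFA4, ATP5H and ATP5O lay under it on all 6 arrays, CYCS on 5, ATP5S on 3, and NDUFA1 and SDHD on 1 each. The sizes of their differences are uncertain and no fold is given for them. The 48 members in the brighter of 2 equal parts of all genes had a median difference of 0.64, and 45 of these were above 0. Of these 48, 12 had an unadjusted p under 0.05 with the greater signal in CD163high, against 2.97% of the genes in that part, 23 had it in all 3 pigs, against 11.9%, and 12 had it without overlap, against 3.5%. The 7 members in the dimmer part had a median of 0.11.

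Complex I, the NADH dehydrogenase, had a median difference of 0.47 over its 26 members, with 0.83, 0.43 and 0.072 in pigs 1, 2 and 3. Of these 23 were above 0. In all 3 pigs 9 (34.6%) lay higher and 1 lower in CD163high, against 10.5% and 12.5% of all genes. Limma found an unadjusted p under 0.05 for 5 (19.2%), all with the greater signal in CD163high, against 1.84% of all genes. These were NDUFV3, NDUFB2, NDUFA8, NDUFS5 and NDUFC1. Without pig 1 the median was 0.29. Complex I is shaped like an L, with an arm in the matrix that takes electrons from NADH and hands them to coenzyme Q, and an arm in the membrane that pumps protons.

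In the tip of the matrix arm, the N module that oxidises NADH, 5 members had a median difference of 0.59. NDUFV3, an accessory subunit beside the flavin site, had a signal of 5.42, 4.80 and 5.20 in CD163high and of 3.41, 4.01 and 4.41 in CD163low of pigs 1, 2 and 3. All 3 CD163high arrays lay above all 3 CD163low arrays. The difference was 1.20 ± 0.31, or 2.29-fold, and a second, dimmer probe set of NDUFV3 had 0.36 ± 0.38. NDUFS1, the large iron-sulphur subunit of this module, had 7.41, 6.92 and 4.88 in CD163high and 4.87, 6.66 and 5.11 in CD163low, with overlapping groups and a difference of 0.86 ± 0.78. The accessory subunits NDUFS4, NDUFA12 and NDUFS6 had differences of 0.59 ± 0.50, 0.41 ± 0.38 and -0.042 ± 0.28, each with differing signs between pigs. In the Q module, which reduces coenzyme Q, NDUFA9 had 0.63 ± 0.53 and the core iron-sulphur subunit NDUFS7 -0.047 ± 0.32.

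In the part of the membrane arm next to the matrix arm, 7 accessory subunits had a median difference of 0.32. NDUFC1 had a signal of 7.03, 6.78 and 5.61 in CD163high and of 4.70, 5.93 and 5.01 in CD163low, a difference of 1.26 ± 0.48 or 2.40-fold. Its groups overlapped, since CD163low of pig 2 lay above CD163high of pig 3, but within each pig CD163high was the greater. NDUFA8, which carries twin cysteine motifs and sits on the side of the intermembrane space, had 5.61, 5.88 and 4.41 in CD163high and 4.20, 4.40 and 4.16 in CD163low. The groups did not overlap, but CD163high of pig 3 lay only just over CD163low of pig 2, and the difference was 1.05 ± 0.39. NDUFS5, another subunit with twin cysteine motifs, had 8.00, 7.87 and 7.75 in CD163high and 7.43, 7.56 and 7.05 in CD163low. Its groups lay apart with a narrow spread, at means of 7.87 ± 0.13 in CD163high, against 7.35 ± 0.26 in CD163low, and the difference was 0.53 ± 0.20. NDUFA1, a small membrane subunit, had 3.60, 3.71 and 3.49 in CD163high and 4.08, 3.80 and 4.60 in CD163low. Its groups did not overlap either, in the direction opposite to most members, but its second, dimmer probe set, under the background controls on 3 arrays, had a difference of 0.061. NDUFC2, NDUFA3 and NDUFA10 had differences between 0.24 and 0.32 with differing signs between pigs.

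The 10 measured subunits of the far end of the membrane arm, the NDUFB subunits, all had differences above 0, from 0.16 (NDUFB8) to 1.06 (NDUFB5), with a median of 0.69. NDUFB2 had a signal of 5.86, 5.80 and 5.53 in CD163high and of 5.44, 4.69 and 4.93 in CD163low, without overlap, and a difference of 0.71 ± 0.24 or 1.64-fold. The median of the 10 was 1.32, 0.67 and 0.060 in pigs 1, 2 and 3. NDUFB9 had 10.24, 9.59 and 8.57 in CD163high and 8.65, 8.93 and 8.80 in CD163low, so that the sign turned in pig 3. NDUFB3 and NDUFB5 had their highest signal in CD163high of pig 1, at 6.86 and 6.55. The other 5 arrays lay between 4.42 and 5.15 for NDUFB3 and between 4.02 and 5.03 for NDUFB5. Within pigs 1, 2 and 3 the differences were 1.83, -0.32 and -0.45 for NDUFB3 and 2.44, 0.67 and 0.065 for NDUFB5. NDUFB8 had 9.40, 7.94 and 8.09 in CD163high and 8.35, 7.96 and 8.64 in CD163low, with CD163high the greater in pig 1 only. NDUFB1 and NDUFB4 had differences of 1.05 ± 0.49 and 1.00 ± 0.42. NDUFB6 had 0.76 ± 0.37, NDUFB11 0.25 ± 0.27 and NDUFB10 0.24 ± 0.19. In all 3 pigs 5 of the 10 (50%) lay higher in CD163high, against 10.5% of all genes.

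NDUFA4 was long counted in complex I and is now placed in complex IV in mammals. It had no signal over the background controls on any array, and its paralogue NDUFA4L2, known as a target of hypoxia signalling in human cells, had 4.09, 3.60 and 4.58 in CD163high and 4.20, 3.39 and 4.09 in CD163low. The difference of NDUFA4L2 was 0.19 ± 0.34, with differing signs between the pigs. With both genes counted in complex IV the median of complex I was 0.56 and that of complex IV 0.34.

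**Figure D3:**
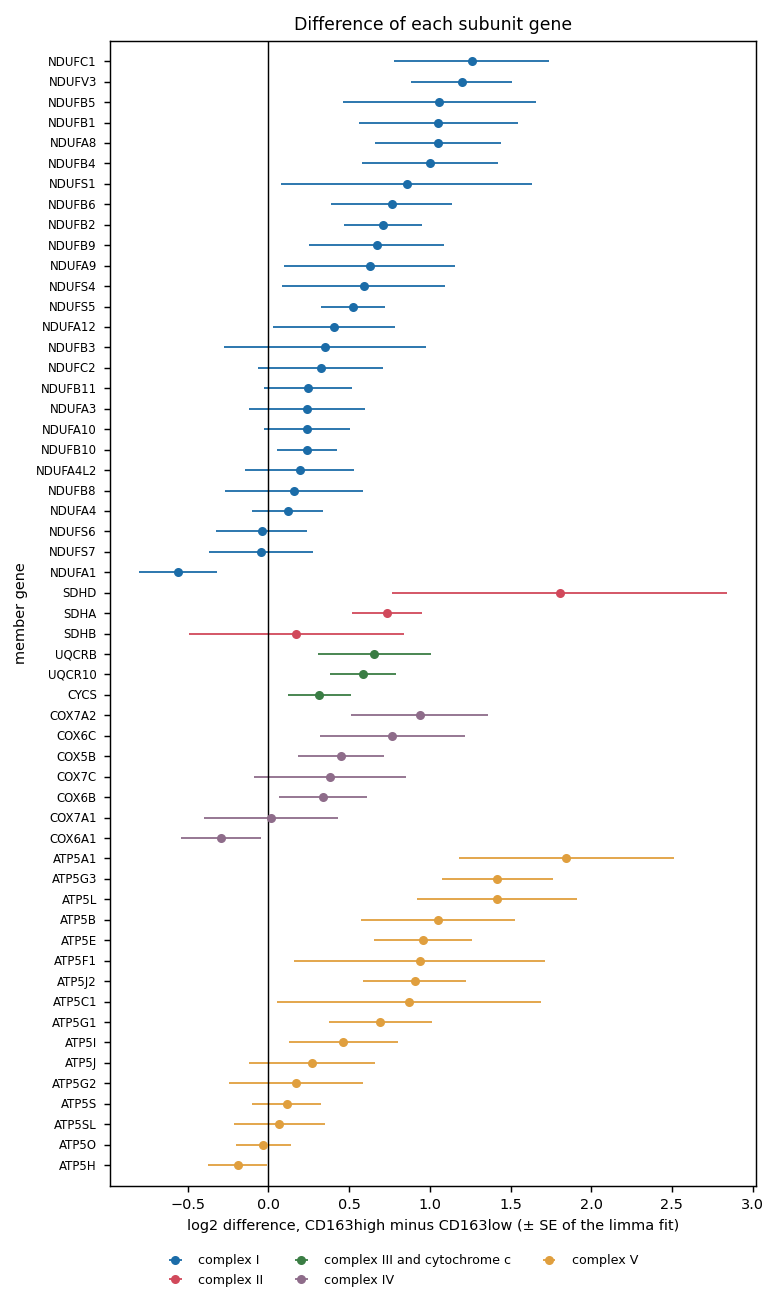
Log2 difference of each of the 55 members, CD163high minus CD163low (horizontal axis), with its standard error in limma (bars), by gene and complex. The points of 49 members lie to the right of 0, from 0.015 (COX7A1) to 1.85 (ATP5A1), and those of 6 to the left.

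Complex II, succinate dehydrogenase, links the tricarboxylic acid cycle to the chain. Its 3 measured subunits had differences of 0.73 ± 0.22 (SDHA), 0.17 ± 0.67 (SDHB) and 1.80 ± 1.04 (SDHD). SDHA, the flavoprotein that binds succinate, had a signal of 5.87, 5.92 and 6.43 in CD163high and of 5.47, 5.18 and 5.37 in CD163low. The groups did not overlap, the fold was 1.66, and the other 3 probe sets of SDHA had differences of 0.36, 0.42 and 0.74, the last of them under the background controls on 3 arrays. SDHB, the iron-sulphur subunit, had 9.79, 8.84 and 10.53 in CD163high and 10.36, 8.26 and 10.03 in CD163low. Pig 2 was lowest in both groups, the groups overlapped, and the differences were -0.56, 0.58 and 0.50 in pigs 1, 2 and 3. All 6 probe sets of SDHB had differences above 0, from 0.12 to 0.61. SDHD, a membrane anchor, had 6.45, 6.53 and 4.31 in CD163high and 2.08, 5.74 and 4.06 in CD163low. Its large mean difference rested on CD163low of pig 1, whose signal lay under that array's background controls (3.29), and in pigs 2 and 3 the differences were 0.79 and 0.24.

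Complex III, the cytochrome bc1 complex, takes electrons from reduced coenzyme Q and hands them to cytochrome c. UQCR10, a small subunit, had a signal of 5.10, 5.28 and 5.50 in CD163high and of 4.48, 4.96 and 4.69 in CD163low. All 3 CD163high arrays lay above the CD163low arrays, and the difference was 0.58 ± 0.20. UQCRB, the subunit that contributes to the coenzyme Q site, had 7.84, 6.76 and 6.56 in CD163high and 6.34, 6.44 and 6.42 in CD163low, again without overlap, but the margin was small in pig 3 (0.14) and the difference of 0.66 ± 0.35 rested mostly on pig 1 (1.51). CYCS, cytochrome c itself, had 3.21, 2.72 and 2.88 in CD163high and 2.58, 2.53 and 2.76 in CD163low, which was under the background controls on 5 arrays. The median of these 3 was 0.58, and it was 0.23 without pig 1 and 0.26 without CD163high of pig 1.

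Complex IV, cytochrome c oxidase, reduces oxygen to water. Its 7 measured subunits had a median difference of 0.38, and by pig it was 0.66, 0.68 and -0.085. In limma none had an unadjusted p under 0.05, against 1.84% of all genes higher and 1.43% lower in CD163high. Without pig 1 the median was 0.24, where that of complex III was 0.23. COX7A2, the form of subunit 7A found in most tissues, had a signal of 7.40, 6.41 and 6.22 in CD163high and of 5.07, 6.02 and 6.14 in CD163low. It was the 1 member of the complex with the same direction in all pigs. Its mean difference was 0.94 ± 0.42, but within pigs it was 2.33 in pig 1 and only 0.080 in pig 3. COX7A1, the form of heart and skeletal muscle, had 4.99, 5.45 and 6.01 in CD163high and 5.54, 4.77 and 6.11 in CD163low, a difference of 0.015 ± 0.42 with fully overlapping groups. A test of the difference between the 2 forms was not run.

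Other subunits of complex IV differed in sign between pigs. COX6C had 8.71, 7.62 and 7.75 in CD163high and 6.79, 6.91 and 8.07 in CD163low, so that CD163low was the greater in pig 3. COX5B, a subunit that contacts the catalytic core on the matrix side, had 5.46, 5.37 and 5.43 in CD163high and 4.78, 4.62 and 5.51 in CD163low, with a very even signal in CD163high. Its 2 dimmer probe sets had differences of 0.64 ± 0.22 and 0.063 ± 0.33. COX7C had 8.17, 7.80 and 8.19 in CD163high and 8.74, 6.93 and 7.36 in CD163low, with CD163low of pig 1 the highest array and a difference of 0.38 ± 0.47. COX6B had 6.69, 6.96 and 6.16 in CD163high and 6.04, 6.59 and 6.18 in CD163low, and its difference of 0.34 ± 0.27 was near 0 in pig 3. COX6A1, the form of subunit 6A found in most tissues, was the 1 member of the complex below 0, at 8.38, 8.32 and 8.12 in CD163high and 8.78, 8.10 and 8.82 in CD163low, a difference of -0.29 ± 0.25 with the opposite sign in pig 2.

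**Figure D4:**
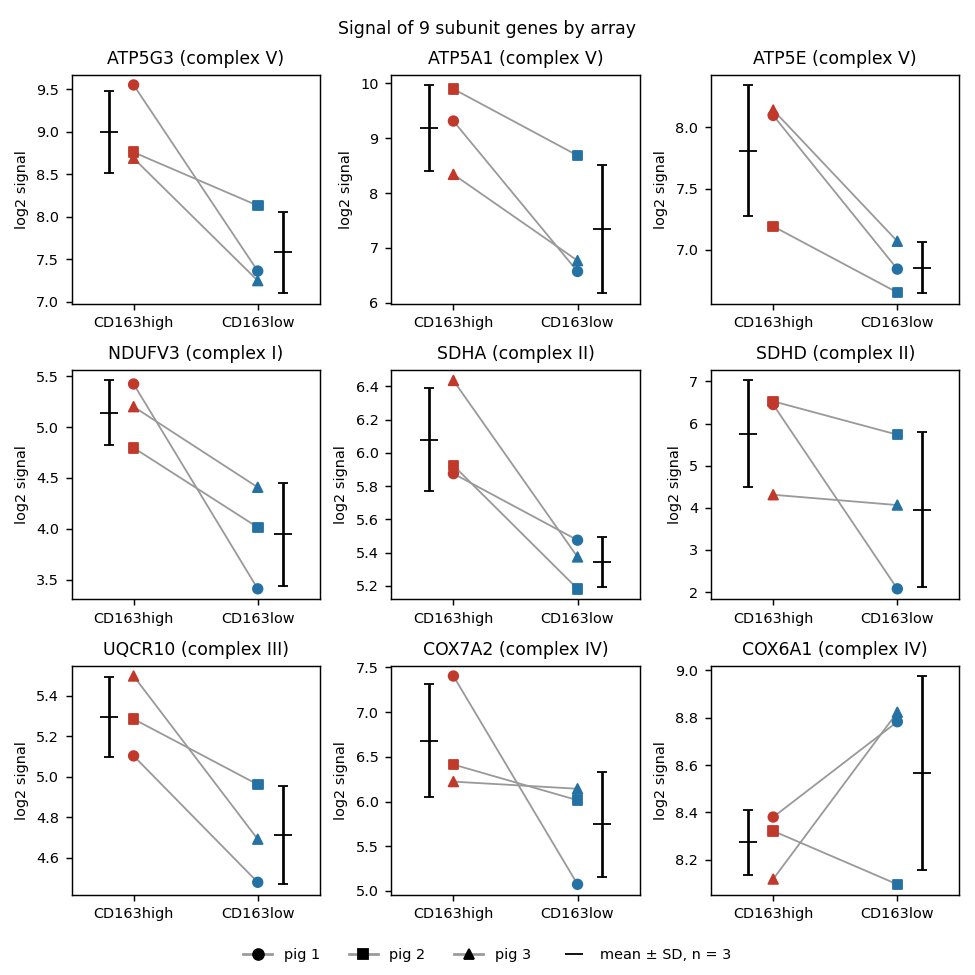
Log2 signal of 9 members on each array, CD163high (red, left) and CD163low (blue, right), with grey lines joining the 2 arrays of a pig, and mean ± SD over 3 arrays beside the points. ATP5G3, ATP5E, NDUFV3, SDHA, UQCR10 and COX7A2 do not overlap between the groups, ATP5A1 lies higher in CD163high in each pig with overlapping groups, SDHD shows CD163low of pig 1 at 2.08, and COX6A1 has the opposite mean difference.

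Complex V, the ATP synthase, had a median difference of 0.78 over 16 members, with 1.21, 0.53 and 0.32 in pigs 1, 2 and 3. Of the 16, 14 were above 0. In all 3 pigs 9 (56.25%) lay higher in CD163high, against 10.5% of all genes and 13.7% of the bright genes. Limma found an unadjusted p under 0.05 with the greater signal in CD163high for 5 (31.25%). The share was 1.84% of all genes and 3.99% of the bright genes. The 5 were ATP5G3, ATP5E, ATP5L, ATP5J2 and ATP5A1. The median was 0.50 without CD163high of pig 1, where that of complex II was 0.84, so the complexes have no fixed order. ATP5S and ATP5SL carry the older symbols of the distal membrane arm assembly genes DMAC2L and DMAC2 and are no subunits of the synthase. They had differences of 0.11 and 0.068, and without them the median of complex V was 0.89.

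The F1 head, where ADP is phosphorylated, had a median difference of 1.00 over 4 members. ATP5A1, the alpha subunit, had a signal of 9.31, 9.90 and 8.34 in CD163high and of 6.57, 8.69 and 6.77 in CD163low, a difference of 1.85 ± 0.67 or 3.59-fold. CD163low of pig 2 lay above CD163high of pig 3, so the groups overlapped, but within pigs the differences were 2.75, 1.21 and 1.57. ATP5B, the catalytic beta subunit, had 9.76, 10.45 and 8.92 in CD163high and 8.32, 9.37 and 8.28 in CD163low, with differences of 1.43, 1.07 and 0.64 within the pigs and a mean difference of 1.05 ± 0.48. With the pig as a block the standard errors of ATP5A1 and ATP5B were 0.35 and 0.23, and their adjusted p stayed at 1 in limma. ATP5E, the epsilon subunit of the rotating stalk, had 8.10, 7.19 and 8.14 in CD163high and 6.84, 6.65 and 7.07 in CD163low, without overlap, and a difference of 0.96 ± 0.30 or 1.94-fold. Its 2 dimmer probe sets had 0.86 ± 1.00 and 0.063 ± 0.25. ATP5C1, the gamma subunit, had 9.76, 9.71 and 7.35 in CD163high and 7.28, 9.29 and 7.63 in CD163low, and its sign turned in pig 3.

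The 3 genes ATP5G1, ATP5G2 and ATP5G3 encode the same mature c subunit of the membrane ring, with different import sequences. ATP5G3 had the smallest p of all members without a block, and with the pig as a block ATP5A1, ATP5B and ATP5E had smaller ones. It measured 9.55, 8.76 and 8.69 in CD163high, against 7.36, 8.13 and 7.25 in the CD163low arrays, without overlap, and the difference was 1.42 ± 0.35 or 2.67-fold. Its second probe set, with a mean signal under the background controls, had -0.37 ± 0.17. ATP5G1 had 7.44, 7.21 and 6.67 in CD163high and 6.94, 6.02 and 6.27 in CD163low, a difference of 0.69 ± 0.32 with the same direction in all pigs. ATP5G2 had 8.05, 8.80 and 9.06 in CD163high and 9.14, 7.82 and 8.44 in CD163low, a difference of 0.17 ± 0.41 that was -1.09 in pig 1. Whether the 3 genes differ from each other in their response was not tested.

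The small membrane subunits e, f and g, which shape the dimer of the synthase, lay higher in CD163high in all pigs. ATP5L, subunit g, had a signal of 7.61, 6.16 and 5.98 in CD163high and of 4.59, 5.58 and 5.32 in CD163low, without overlap, and differences of 3.02, 0.58 and 0.66 within the pigs. ATP5J2, subunit f, had 6.74, 6.57 and 5.73 in CD163high and 5.12, 5.70 and 5.49 in CD163low, a difference of 0.91 ± 0.32. ATP5I, subunit e, had 0.46 ± 0.34. In the peripheral stalk, which holds the head still, ATP5F1 had a difference of 0.94 ± 0.78 and ATP5J 0.27 ± 0.39, while ATP5H and ATP5O had no signal over the background controls.

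**Figure D5:**
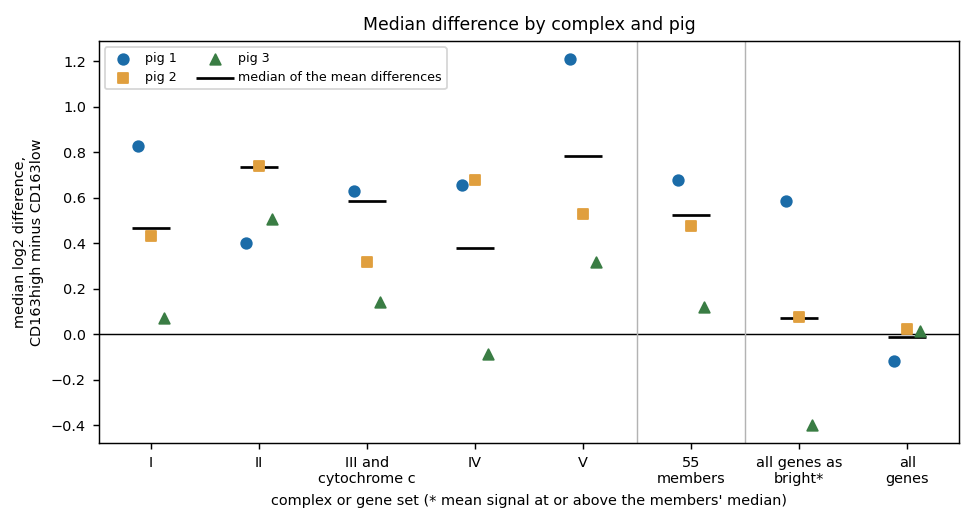
Median log2 difference, CD163high minus CD163low (vertical axis), of the members of each complex, of all 55 members, of all genes with a mean signal at or above the members' median, and of all genes, with a symbol for each pig and a bar for the median of the mean differences. Pig 3 has the lowest median in complexes I, III, IV and V, and the bright genes spread from -0.40 in pig 3 to 0.59 in pig 1.

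The members with several probe sets gave a mixed account. The 55 members had 89 probe sets, of which 73 had a difference above 0 and 16 below. Among the 75 with a mean signal over the background controls these numbers were 68 and 7. Of the 20 members with several probe sets 11 had both signs, and 4 (ATP5C1, ATP5J, NDUFA1 and NDUFS7) had both signs among probe sets over the background controls. The 11 include ATP5G3, ATP5L, COX7A2 and UQCRB, whose brightest probe sets did not overlap between the groups. With the mean of all probe sets of a gene in place of the brightest, the members' median was 0.39.

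Genes that assemble the complexes or feed them had differences mostly above 0, and limma called 0 of them. Only 18 of 51 listed assembly factors were measured. Above 0 were 16 of these (88.9%), against 47.7% of all genes and 56.6% of the bright genes, and their median was 0.35. Their median signal was 4.27, near that of all genes (4.15) and far under that of the bright genes (6.97). On some array 8 of the 18 lay under the background controls. ATPAF2, which assembles the F1 head, had a signal of 5.30, 4.64 and 5.02 in CD163high and of 4.04, 4.05 and 3.86 in CD163low, without overlap, and a difference of 1.01 ± 0.22. NUBPL, which delivers iron-sulphur clusters to complex I, had 0.86 ± 0.47 with the opposite sign in pig 3. It lay under the background controls on 2 arrays. For the tricarboxylic acid cycle 13 of 15 listed genes were measured, and 12 of these (92.3%) were above 0. They had a median of 0.63 and medians of 1.27, 0.51 and -0.14 in pigs 1, 2 and 3. The 1 gene of this list below 0 had a difference of -0.60. SUCLG1, a subunit of succinate-CoA ligase, had 0.73 ± 0.28. MDH1, which is counted in this list although it is the cytosolic malate dehydrogenase, had 0.56 ± 0.22.

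Among genes of mitochondrial carriers, outer membrane pores and cristae shape 27 of 28 listed were measured. Above 0 were 20 of these (74.1%), against 47.7% of all genes, and their median was 0.31. SLC25A5, an exchanger of ADP for ATP, had a signal of 9.06, 9.12 and 7.47 in CD163high and of 6.75, 7.76 and 6.59 in CD163low, a difference of 1.52 ± 0.54. CD163high was the greater in each pig, with overlapping groups. VDAC3, a pore of the outer membrane, had 0.75 ± 0.32. For electron entry and coenzyme Q synthesis 19 of 23 listed genes were measured, and 16 of these (84.2%) were above 0, with a median of 0.27. AIFM2, a reductase of coenzyme Q, had 0.50 ± 0.31 and COQ10B, a coenzyme Q binding protein, -0.55 ± 0.26.

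Regulators of mitochondrial biogenesis did not share the members' median. The 18 measured of 26 listed had a median difference of -0.047, against -0.013 for all genes. Above 0 were 8 (44.4%), against 47.7% of all genes, and 10 were below. In all 3 pigs 0 lay higher in CD163high, against 10.5% of all genes, and 3 lower, against 12.5%. MYC had -0.49 ± 0.25 and the coactivator gene PPRC1 -0.27 ± 0.18. NRF1 and GABPA, transcription factors known to bind promoters of respiratory chain genes, had differences of -0.022 and 0.034, and PPARGC1A lay under the background controls on all arrays. Subunits encoded by the mitochondrial genome were looked for under 26 symbols, of which 0 were among the gene symbols used, so they could not be described.

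Most marker lists of other blood cells had a median difference below 0, and their part in the members' differences was not tested. The summed linear signal of the 4 measured of 7 neutrophil markers was 328 to 886 in CD163high and 752 to 1794 in CD163low, with MPO under the background controls on 4 arrays and LTF on 6. CXCR2 had a difference of -2.66 ± 0.41 and CSF3R -1.09 ± 0.56. For 5 of 7 B cell markers the sum was 472 to 1701 in CD163high and 628 to 1720 in CD163low, with MS4A1 at -1.73 ± 1.05 and CD79B at -0.29 ± 0.17. BANK1 had the highest signal of the 5 on every array, so it made the largest single part of each sum. It went the other way, at 0.74 ± 0.55 and higher in CD163high in all 3 pigs, while 4 of the 5 were below 0. For 6 of 7 T cell markers it was 448 to 2102 in CD163high and 426 to 2451 in CD163low, with CD3D at -1.03 ± 1.28 and CD3E at -0.69 ± 1.01. For the 6 NK cell markers it was 293 to 609 in CD163high and 371 to 653 in CD163low, with NCR1 at -0.12 ± 0.20 and KLRB1, which was under the background controls on 5 arrays, at -0.48 ± 0.30.

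The platelet markers (5 of 6) summed to 95.6 to 132 in CD163high and to 108 to 132 in CD163low, with ITGA2B at -0.56 ± 0.25 and ITGB3 at -0.50 ± 0.24. Of these 5, 3 were below 0 and 2 above, GP9 at 0.062 ± 0.31 and GP1BA at 0.021 ± 0.16. On some array 4 of the 5 lay under the background controls, with ITGA2B on 2 arrays, ITGB3 on 3 and GP1BA on 4. The dendritic cell markers (3 of 5) summed to 56.0 to 77.1 in CD163high and to 70.4 to 122 in CD163low, with FCER1A at -0.72 ± 0.25 and XCR1 at -0.60 ± 0.27. The erythroid markers (4 of 6) summed to 35.8 to 2120 in CD163high and to 36.3 to 1792 in CD163low. AHSP lay at 2.98, 5.91 and 2.62 in CD163high and at 2.41, 5.75 and 2.51 in CD163low, high in both arrays of pig 2, and SLC4A1 had a difference of -0.22 ± 0.23.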

How the data were processed

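Each sample, amplified out of 500 ng of total RNA, went on 1 array as 5.5 µg of labelled cDNA, per the labels' protocols. The authors deposited a table of probe-set intensity values. Per the submitters' processing notes RMA and limma were used, with no version or role stated. RMA compresses differences of dim probe sets. The table mixes 2 scales: 186 rows hold log2 values, and 47659 hold antilogs (their log2 are whole multiples of 0.0001 within 0.000001), so log2 was taken of the antilogs only. Column medians as deposited ran between 8.73 and 9.86.

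After removal of 123 control probe sets, 47722 were tested with limma (version 3.58.1, R 4.3.3; lmFit, eBayes), CD163high against CD163low without a block. P-values were two-sided and adjusted by Benjamini-Hochberg over all of these, at a threshold of 0.05. A single symbol was given for 26426 probe sets, and all 55 member symbols are in RefSeq's Sscrofa11.1 table. The probe set with the highest mean over 6 arrays stood for a gene. Among the 55 probe sets that stood for the members 9 carry an s in their identifier, that of ATP5A1 included. This mark is used on Affymetrix arrays for probe sets that match several transcripts. Some dimmer probe sets of the members carry it too and are not in this count. Pseudogenes of the members were not examined. The fit was checked on simulated data.

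Arrays with the same pig number come from 1 animal, per the labels, and are paired. Deviations from group means correlated at -0.20, 0.67 and 0.26 within pigs 1, 2 and 3, and at up to 0.60 between pigs.

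The members, lists and modules were chosen with earlier results of these data known, so lists are described and not tested. AOX1, an aldehyde oxidase, was taken out of the coenzyme Q list after its values were seen. The rule for naming genes took the 5 members of each complex with the smallest p, the 2 of highest mean signal and pairs of isoforms, and the 2 genes of smallest p in each other list, some of which are given by their difference alone. NDUFA1, NDUFA3, NDUFA9, NDUFA10, NDUFA12, NDUFB1, NDUFB3, NDUFB4, NDUFB5, NDUFB6, NDUFB10, NDUFB11, NDUFC2, NDUFS1, NDUFS4, NDUFS6, NDUFS7, ATP5C1, ATP5F1, ATP5H, ATP5I, ATP5J, ATP5O, ATP5S, ATP5SL, NRF1, GABPA, PPARGC1A, LYZ, ITGAM, BANK1, GP9, GP1BA, MPO and LTF are additions to it, made with their values in view. Alternatives covered the pig as a block, other variance models, array weights, filters on dim probe sets, other normalizations, the mean of all probe sets, the background as a covariate and omission of pigs and arrays. The planned search of promoter motifs was not run.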

Additional observations from a re-analysis of the deposited data

How the results depend on the processing

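Limma called 0 members and 0 probe sets under each setting run. The pig as a block (14 members with an unadjusted p under 0.05 and the greater signal in CD163high, against 12 without it) changed no call. That number was 6 with a trended robust variance (1.19% of all genes), 27 with array weights (10.6%), 26 with the background as covariate (8.85%) and 2 at a p of 0.01 (0.4%), against 12 and 1.84% without these. It ran from 4 (without pig 1) to 21 (without CD163high of pig 3) as pigs or arrays were left out. In the other direction it was 0, except for 1 with a random block, 2 with array weights, 1 without pig 2 and 2 without CD163low of pig 2. Of all 13755 genes 306, 1680, 308 and 436 had it in that direction under these settings, in the same order. Left-out pigs or arrays gave medians of 0.34 to 0.62 for all members, 0.54 to 0.84 for complex II and 0.23 to 0.71 for complex III, and the mean of all probe sets gave 0.33 for complex III. The median of complex V was 0.49 with that mean. Members with differences near 0 turned in sign. With array weights NDUFA4L2 had -0.047, SDHB -0.33, COX7A1 -0.72 and ATP5G2 -0.073. With the mean of all probe sets COX7A1 had -0.12 and ATP5G2 -0.13. With the background as covariate SDHB had -0.17, COX7A1 -0.19 and ATP5G2 -0.044, and COX7A1 had -0.22 without the 2 arrays of highest background. Left-out pigs or arrays gave -0.024 to 0.27 for NDUFA4, -0.057 to 0.44 for NDUFA4L2, -0.30 to 0.51 for NDUFB8, -0.47 to 0.62 for SDHB, -0.34 to 0.33 for COX7A1 and -0.24 to 0.80 for ATP5G2. The causes were not tested. The 3-pig count (24) lay between 23 and 28, and has no value where a pig or array is left out. The search of promoter motifs was not run. Regrouping NDUFA4 and NDUFA4L2, and leaving out ATP5S, ATP5SL or members under the background controls (median of the rest 0.59), was chosen after seeing the data. Signal near the background limits the 7 dim members.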
